A study of Homo sapiens with 15 samples.

Results

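The lowest dose of ZJ-101 tested, 0.5 nM, was compared with DMSO vehicle in MDA-MB-231, a mesenchymal line from a human breast cancer. The comparison takes 6 of the 15 libraries of the series, namely the 3 labelled 0.5 nM ZJ-101 and the 3 negative controls labelled 0.1% DMSO. They were chosen by their labels and not by any measured value. Cells were grown as monolayers in 10 cm dishes and treated for 6 h, and poly-A RNA was sequenced. The libraries of a group were described as biological replicates. The other 9 libraries (5, 50 and 500 nM) share the DMSO controls and enter here through the common estimate of the spread and as values set beside those at 0.5 nM. The question is which genes differ from vehicle at a dose 10 times below the next one.

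ZJ-101 was made by synthesis as a smaller relative of superstolide A, a macrolide first found in a sponge, and the study examined its action on cell adhesion and on the endomembrane system. Membrane and secreted proteins are made at the endoplasmic reticulum (ER), modified with glycans in the Golgi apparatus and carried in vesicles to the cell surface, the lysosome or the extracellular space. Adhesion molecules, matrix proteins, cytokines and growth factor receptors all take this route. Cells adjust the transcription of ER chaperones through the unfolded protein response (UPR), and that of lipid enzymes through SREBP factors, which are themselves activated on the way from ER to Golgi.

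The values are read counts per gene divided by a size factor for each library, called normalized counts here. Reads on genes numbered 13080286 to 13856980 at 0.5 nM and 13262548 to 14099280 in DMSO. Of the mesenchymal markers, vimentin (VIM) lay between 13590 and 18410 normalized counts in the 6 libraries and AXL between 12150 and 13100. Epithelial markers were present too, with the keratins KRT8 between 11480 and 13350 and KRT18 between 4032 and 5115, and EPCAM between 269 and 317. Of the receptors, estrogen receptor (ESR1) lay between 0 and 2.93, PGR between 10.01 and 16.6 and ERBB2 between 1136 and 1242. SPARC, listed as a mesenchymal marker, was near 0 (2.06 to 5.07), as were PTPRC of leukocytes (1.02 to 3.00) and PDGFRA of fibroblasts (0 to 2.03), while PECAM1 of endothelium lay between 218 and 293 and COL1A1 of fibroblasts between 165 and 224. None of the markers tested passed the threshold between the groups.

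Among the libraries, 0.5 nM replicate 2 stood apart. Its level relative to the DMSO mean fell with transcript length, with a slope of -0.116 log2 units per doubling of length across genes, where the slopes of the other 14 libraries lay between -0.0411 and 0.0237. When genes were divided into 4 equal bins by length, in the bin with the shortest transcripts (median 1702 bases) its median log2 difference from the DMSO mean was 0.16, and in the bin with the longest (median 7491 bases) it was -0.16. The same medians were 0.01 and 0.01 in replicate 1 and 0.01 and 0.03 in replicate 3. Mitochondrial genes took 1.88% of its reads, against 1.15% and 0.889% in the other 0.5 nM libraries and 0.942% to 1.58% in DMSO, although a library at 5 nM reached 2.06%. In 0.5 nM replicate 1, 22203 genes had at least 1 read, against 20303 to 21189 in the other 14 libraries. Results are therefore given with and without replicate 2, and no cause of these differences was tested.

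**Figure D1:**
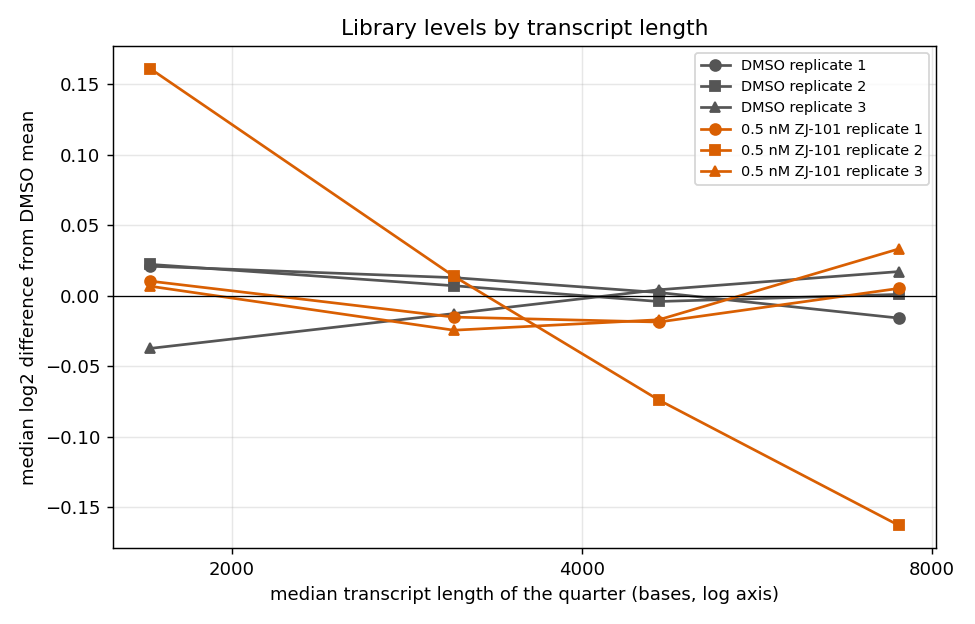
Median log2 difference from the mean of the 3 DMSO libraries (vertical axis) in 4 bins of genes by transcript length (horizontal axis, bases, log scale), with 1 line per library. The line of 0.5 nM replicate 2 runs from 0.16 to -0.16, and the 5 other lines stay between -0.0374 and 0.0332.

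Against DMSO, 159 of 13561 genes tested were differentially expressed at 0.5 nM (1.17%; limma, Benjamini-Hochberg adjusted p under 0.05). Of these, 34 rose (0.251% of genes tested) and 125 fell (0.922%). Most changes were small, with a median absolute log2 fold change of 0.34 and 125 of the 159 below 0.5, and the range ran from -1.49 to 2.21. The 3 libraries at 0.5 nM lay wholly above or below the 3 DMSO libraries for 2454 genes (18.1%), of which 1008 were higher (7.43% of genes tested) and 1446 lower (10.7%), and all 159 genes past the threshold were among them. Without 0.5 nM replicate 2, 154 genes passed (1.14%), with 47 up and 107 down. The genes in common numbered 99, of which 20 rose and 79 fell, so that 60 of the 159 calls were lost and 55 were gained. None of the 159 changed sign, an outcome fixed in advance because their treated libraries all lay on 1 side of DMSO.

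Transcript length moved with these calls. The median transcript was 3856 bases long over all genes tested, 1876 bases among the genes that rose and 4874 bases among those that fell. Without replicate 2 the order turned, with 6182 bases among the genes that rose and 4149 among those that fell. After the trend of every library on length and GC content had been subtracted, 57 genes rose and 154 fell, and 92 of the 159 genes (20 up and 72 down) passed in all 3 of these analyses. When DMSO replicate 1, 2 or 3 was left out, 19, 31 and 39 genes passed. Leaving out 0.5 nM replicate 1 gave 88 genes, and leaving out replicate 3 gave 391. Where a gene is said below to be lost without a library, it is the call that was lost.

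**Figure D2:**
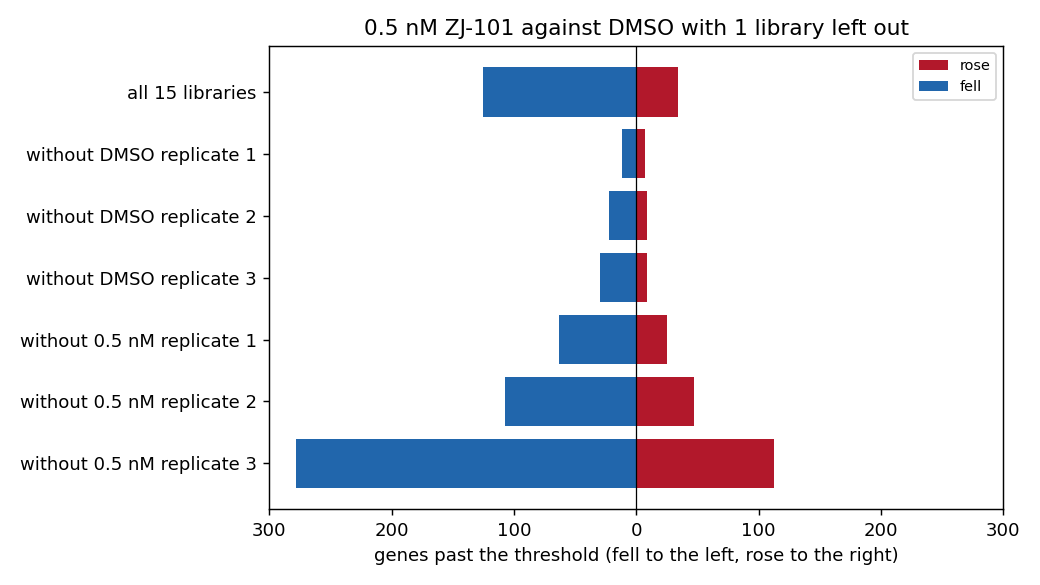
Number of genes past the threshold at 0.5 nM (horizontal axis, those that fell to the left of 0 and those that rose to the right) with all 15 libraries and with 1 library left out. The count is 159 with all libraries, lies between 19 and 39 without any 1 of the DMSO libraries and reaches 391 without 0.5 nM replicate 3.

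In all, 15 genes passed the threshold with every library and also when each of the 6 libraries was left out in turn. IL1B, CSF3, MMP1, AOX1 and CRABP2 rose. MAL2, ACSL3, CEMIP, FGFR3, BMP4, EFEMP1, SYTL2, TNS4, CREB3L1 and SORCS2 fell. They were chosen by this stability, which is a description and adds no test to that of the comparison itself.

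Of the genes that rose, IL1B (chr2:112829751-112836816, minus strand, GENCODE 44 on GRCh38) encodes the inflammatory cytokine interleukin-1 beta. It had 636, 674 and 601 normalized counts in the DMSO libraries and 924, 1054 and 1041 at 0.5 nM. Every treated library lay above every control, and the means were 637 ± 36.6 and 1006 ± 71.6 (SD, n = 3), a 1.58-fold difference (log2 fold change 0.66 ± 0.07 SE, limma adjusted p = 1.80e-04). CSF3 (chr17:40015361-40017813, plus strand), the granulocyte colony-stimulating factor, had 223, 216 and 213 normalized counts in DMSO and 325, 363 and 351 at 0.5 nM (log2 fold change 0.67 ± 0.08, adjusted p = 3.47e-04). MMP1 (chr11:102789401-102798160, minus strand), a collagenase that cleaves fibrillar collagens, went from 808, 805 and 701 to 1081, 1119 and 1013 (0.47 ± 0.06, adjusted p = 5.77e-04). These 3 secreted proteins kept their fold changes without replicate 2, at 0.62 for IL1B, 0.63 for CSF3 and 0.44 for MMP1.

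AOX1, the aldehyde oxidase, measured 844, 836 and 839 normalized counts in DMSO, a narrow spread, and 1105, 1025 and 1129 at 0.5 nM (0.37 ± 0.05, adjusted p = 0.00216). CRABP2 binds retinoic acid in the cytosol and carries it to the nucleus. Its values were 150, 141 and 140 in DMSO against 220, 245 and 220 at 0.5 nM (0.67 ± 0.11, adjusted p = 0.00957). For both genes the groups were separate, and in AOX1 replicate 2 was the lowest of the treated libraries whereas in CRABP2 it was the highest. DHRS3, a retinaldehyde reductase, also rose, from 194, 246 and 234 to 306, 303 and 332 (0.49 ± 0.09, adjusted p = 0.0119). Without DMSO replicate 1 its fold change was 0.38 and the call was lost (adjusted p = 0.0852).

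Among the genes that fell, MAL2 had the smallest p of the whole comparison. It is an integral membrane protein of transcytosis, the transport of proteins across epithelial cells. The DMSO libraries had 1927, 1888 and 1838 normalized counts and the 0.5 nM libraries 1326, 1321 and 1280, so that the treated mean was 69.5% of the control (log2 fold change -0.53 ± 0.04, adjusted p = 7.16e-06). ACSL3 (chr2:222860942-222944639, plus strand), which activates long-chain fatty acids at the ER and on lipid droplets, went from 2734, 2767 and 2819 to 2095, 2004 and 2169 (-0.41 ± 0.04, adjusted p = 1.80e-04). The SD was below 100 normalized counts in either group for both genes, and the distance between the groups was larger than the range within them.

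A larger fall was seen in 3 genes that act at the cell surface. CEMIP (chr15:80779343-80951776, plus strand), which binds hyaluronan and promotes its breakdown, had 803, 794 and 746 normalized counts in DMSO and 441, 367 and 545 at 0.5 nM (-0.81 ± 0.10, adjusted p = 9.80e-04). The treated libraries were further apart here than the controls, and without replicate 2, the lowest, the fold change was -0.67. FGFR3, a receptor tyrosine kinase for fibroblast growth factors, went from 170, 174 and 164 to 98.9, 86.1 and 107 (-0.80 ± 0.11, adjusted p = 0.00201). TNS4, a tensin that binds the cytoplasmic tails of integrins, went from 487, 484 and 511 to 290, 276 and 323 (-0.74 ± 0.11, adjusted p = 0.00339). Both ended at under 60% of the DMSO level, at 57.4% for FGFR3 and 59.9% for TNS4.

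The secreted factor BMP4 fell to 81.0% of DMSO (-0.30 ± 0.04, adjusted p = 0.00235), and 16.3% of its exon bases lie in exons of another gene. EFEMP1, a fibulin of the extracellular matrix, fell to 74.1% (-0.43 ± 0.06, adjusted p = 0.00325). SYTL2, which tethers secretory vesicles through Rab27, fell from 437, 449 and 457 normalized counts to 321, 277 and 335. CREB3L1, a transcription factor held in the ER membrane and released in the Golgi, fell from 1730, 1681 and 1741 to 1250, 1341 and 1345. SORCS2, a sorting receptor of the VPS10 family, fell to 76.4% of DMSO (-0.39 ± 0.06, adjusted p = 0.00441), and without replicate 2 the fold change was -0.31.

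**Figure D3:**
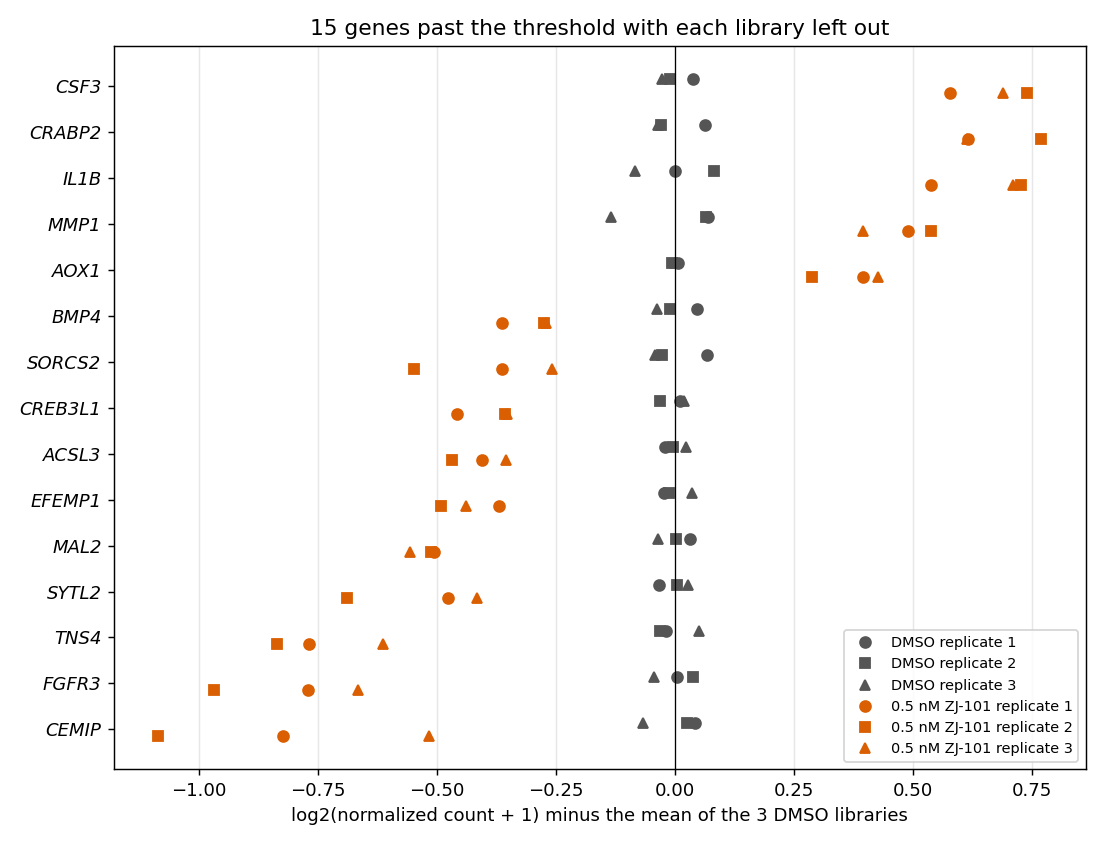
Each library's log2(normalized count + 1) minus the mean of the DMSO libraries (horizontal axis) for the 15 genes that passed with each library left out (rows), with gray points for DMSO and orange points for 0.5 nM and the shape marking the replicate. No orange point overlaps the gray ones of its gene, and 0.5 nM replicate 2 is the lowest point in CEMIP, FGFR3, TNS4, SYTL2, EFEMP1, ACSL3 and SORCS2.

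Among the genes past the threshold, fold changes of at least 1 on the log2 scale were rare. Apart from FOS they were in genes with few reads. MARF1, an RNA-binding regulator of mRNA stability, had 26.9, 18.2 and 17.3 normalized counts in DMSO and 111, 72.1 and 118 at 0.5 nM. This is a 4.64-fold difference (log2 fold change 2.21 ± 0.38, adjusted p = 0.0101). It was the only gene past the threshold that rose by a log2 fold change of at least 1. Its transcript has a copy on 1 alternate contig of the assembly, and the gene did not pass without DMSO replicate 2 or 3 (highest adjusted p = 0.0545). A fall of that size was seen in 5 of the genes past the threshold, namely C1S, FOS, SUSD2, MUC1 and PCDHB11. C1S, a protease of the complement cascade, went from 19.2, 19.2 and 17.3 to 7.21, 5.01 and 5.86, and SUSD2, a membrane protein with sushi domains, from 36.5, 38.4 and 32.5 to 17.5, 17.0 and 10.8. MUC1, the membrane mucin of epithelia, went from 41.3, 31.4 and 43.6 to 16.5, 15.02 and 17.6 (-1.18 ± 0.23, adjusted p = 0.0163). The protocadherin PCDHB11 measured 48.1, 41.5 and 43.6 in DMSO and 27.8, 13.0 and 20.5 at 0.5 nM, and neither it nor C1S passed without replicate 2 (adjusted p = 0.106 and 0.0700). Each of the 5 lost the call without some library: SUSD2 only without DMSO replicate 1 (adjusted p = 0.0522), and the others with a highest adjusted p of 0.0937 for MUC1, 0.119 for C1S, 0.143 for FOS and 0.152 for PCDHB11. Next by size among the falls past the threshold was ZFHX2 (a homeobox zinc finger gene, 50.6% of DMSO). It and CALB2 (the calcium-binding protein calretinin, a 1.48-fold rise) lay close to the threshold (adjusted p = 0.0480 for each). CALB2 was lost with any 1 library left out (0.185) and ZFHX2 without any 1 of the DMSO libraries or 0.5 nM replicate 2 (0.168).

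Of 52 genes of the extracellular matrix, 1 rose and 7 fell (15.4%, beside 1.17% of all genes). This list and those below were written with earlier results of these data known, so their shares are descriptions and not tests. TNC, the matrix glycoprotein tenascin C, rose from 1314, 1357 and 1272 normalized counts to 2044, 1550 and 2074 (log2 fold change 0.51 ± 0.09, adjusted p = 0.0101). Here replicate 2 was the lowest treated library, and without it the fold change was 0.65 (adjusted p = 1.95e-05), while the call was lost without DMSO replicate 1 or 3 (highest adjusted p = 0.0540). COL18A1, which encodes a basement membrane collagen and overlaps exons of another gene in 18.5% of its exon bases, fell to 83.2% of DMSO, and COL5A1, of a fibrillar collagen, to 80.5%. VWA1, a matrix protein of the von Willebrand factor A family, fell to 73.7% (adjusted p = 0.0499). Without replicate 2 the list gave 3 genes up and 3 down and COL5A1 had an adjusted p of 0.0548, and 0.143 at most with another library left out. VWA1 was lost with any 1 library left out (highest adjusted p = 0.199) and COL18A1 with any 1 of the DMSO libraries (0.0852). The median log2 fold change of the list was -0.04, with -0.03, -0.21 and 0.04 in 0.5 nM replicates 1, 2 and 3. Its transcripts are long (median 6253 bases), the property along which replicate 2 differed. With the trend on length and GC content removed, the median was -0.02 and TNC (adjusted p = 3.13e-05), COL5A1 (-0.26, adjusted p = 0.00379) and COL18A1 (-0.17, adjusted p = 0.0412) passed, while VWA1 did not (adjusted p = 0.0506). When a replicate block was added to this removal, COL18A1 did not pass either (adjusted p = 0.0516).

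Of 37 cell-cell adhesion molecules, 0 rose and 4 fell (10.8%, where 0.922% of all genes fell). Wholly below DMSO lay 13 of the 37 and wholly above 1, where 10.7% and 7.43% of all genes did. The medians by library were -0.04, -0.11 and -0.03. CDH1, the E-cadherin of epithelial junctions, had 188, 199 and 200 normalized counts in DMSO and 107, 107 and 125 at 0.5 nM (-0.79 ± 0.14, adjusted p = 0.0119). ICAM1, which binds leukocyte integrins, went from 958, 860 and 814 to 614, 541 and 639 (-0.55 ± 0.10, adjusted p = 0.0141), with 25.4% of its exon bases in exons of another gene. The groups were separate in both genes, and both passed without replicate 2, with fold changes of -0.75 and -0.48. Without DMSO replicate 1 or 2 neither passed, with a highest adjusted p of 0.0632 for CDH1, which was also lost without DMSO replicate 3, and 0.0931 for ICAM1. Of 16 integrins none passed with all libraries, where 1.17% of all genes did, and a list of this size can hold no call at that share. The integrin median was -0.11 (-0.12, -0.21 and -0.01 by library), beside -0.01 for all genes tested, and 1 integrin rose without replicate 2. ITGA5, the integrin subunit of the fibronectin receptor, measured 2882, 2888 and 2771 in DMSO and 2865, 2693 and 3188 at 0.5 nM (adjusted p = 0.857), so that the groups overlapped.

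Of 32 genes of fatty acid activation and synthesis, 4 fell and 0 rose (12.5%, beside 1.17% of all genes). As this list was written with earlier results of these data known, its share adds no support. Beside ACSL3, SCD, the desaturase that makes oleate, fell from 2196, 1937 and 1912 normalized counts to 1255, 1057 and 1385 (60.9% of DMSO, -0.72 ± 0.13, adjusted p = 0.0119). SCD passed without replicate 2 (-0.61) but was lost without DMSO replicate 1 or 2 (0.0852). The median of the list was -0.02, and 6 of its genes lay wholly below DMSO and 3 wholly above, where 10.7% and 7.43% of all genes did. The medians by library were 0.01, -0.10 and 0.01, and without replicate 2 the median of the list was 0.00 and 3 genes fell.

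Cytokines and other NF-kB targets moved in both directions. Of 45 genes, IL1B and CSF3 rose and 4 fell (13.3% called, beside 1.17% of all genes), among them ICAM1, TNFAIP2 and TGFB2. TNFAIP2, induced by tumor necrosis factor, fell to 85.2% of DMSO (-0.23 ± 0.04, adjusted p = 0.0101) and was lost without DMSO replicate 1 or 3 (0.0593). TGFB2, a transforming growth factor beta, went from 1922, 1952 and 2035 normalized counts to 1784, 1456 and 1579 (-0.30 ± 0.06, adjusted p = 0.0163), with 34.3% of its exon bases in exons of another gene, and was lost without any 1 of the DMSO libraries (0.0954). TGFB2 and AMOTL2, which binds YAP at cell junctions, were the 2 of 26 YAP/TAZ-TEAD targets that fell (7.69%, where 0.922% of all genes fell). The medians of that list by library were -0.03, -0.19 and -0.08, and its median was -0.08 with replicate 2 and -0.05 without it. AMOTL2 ended at 86.0% of DMSO (adjusted p = 0.0142) and was also lost without any 1 of the DMSO libraries (0.0948).

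Of 37 AP-1 and immediate-early genes, JUN and MCL1 rose and FOS fell (8.11%, beside 1.17% of all genes). JUN and FOS encode partners of the transcription factor AP-1. JUN had 2509, 2412 and 2293 normalized counts in DMSO and 2815, 2735 and 2948 at 0.5 nM (0.24 ± 0.04, adjusted p = 0.0142). The call was lost without DMSO replicate 2 or 3 (highest adjusted p = 0.0929), where the fold changes were 0.24 and 0.20. FOS had 269, 191 and 190 in DMSO and 82.4, 105 and 74.3 at 0.5 nM, or 40.7% (-1.30 ± 0.27, adjusted p = 0.0234), and was lost without any 1 of the DMSO libraries or 0.5 nM replicate 1 (0.143). FOS was highest in DMSO replicate 1, and no treated library reached the lowest control. The survival factor MCL1 rose by 0.18 ± 0.04 (adjusted p = 0.0459) and did not pass under TMM scaling or without any 1 of the DMSO libraries or 0.5 nM replicate 1 or 3 (0.171).

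The upstream sequences of the genes past the threshold were searched for the AP-1 motif TGANTCA, whose reverse complement has the same form, so that both strands are covered by a single search. The motif was chosen after the values of JUN and FOS had been seen. The window is the 250 bases before the start that RefSeq gives, on GRCh38.p14, and starts differ between annotations: that of MANCR in GENCODE 44 lies inside its window. The motif was present in 4 of the 28 genes that rose and have an entry (14.3%), in 4 of 91 that fell (4.40%), in 3.94% of the 10029 tested genes with an entry and in 6.60% of all 27305 entries. The 4 that rose were UCN2, LINC00973, MANCR and PRSS3, and the 4 that fell CLDN2, SAMD9L, LCN2 and GXYLT2. Each of these genes lost its call with at least 1 of the 6 libraries left out: LINC00973 without DMSO replicate 1 (adjusted p = 0.0681), CLDN2 without any 1 of the DMSO libraries (highest adjusted p = 0.0846), PRSS3 and LCN2 without any 1 of these or 0.5 nM replicate 1 or 2 (0.114 and 0.189), and GXYLT2 with any library left out (0.238). Without 0.5 nM replicate 2 the adjusted p was 0.0594 for PRSS3, 0.0502 for LCN2 and 0.115 for GXYLT2. No entry of another gene past the threshold held these letters in this window, which says nothing of binding elsewhere. The windows of UCN2 (chr3:48563782-48564031, minus strand) and MANCR (chr10:4678071-4678320, minus strand) are shown because they hold the form TGAGTCA, with each match in capitals and the last base next to the start.
UCN2: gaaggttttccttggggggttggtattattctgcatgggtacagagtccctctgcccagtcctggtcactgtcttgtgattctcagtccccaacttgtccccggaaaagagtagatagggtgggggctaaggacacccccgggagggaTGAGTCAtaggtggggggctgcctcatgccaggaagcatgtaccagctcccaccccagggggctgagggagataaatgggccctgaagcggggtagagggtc
MANCR: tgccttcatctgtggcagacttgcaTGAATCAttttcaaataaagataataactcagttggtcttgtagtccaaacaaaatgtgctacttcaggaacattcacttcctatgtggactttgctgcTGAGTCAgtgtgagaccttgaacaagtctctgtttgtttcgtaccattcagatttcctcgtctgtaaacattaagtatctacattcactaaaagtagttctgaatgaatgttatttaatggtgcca

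UCN2 encodes urocortin 2, a peptide ligand of the corticotropin-releasing hormone receptors. It rose from 233, 225 and 257 normalized counts to 315, 318 and 359 (0.47 ± 0.08, adjusted p = 0.00912), was lost without DMSO replicate 1 or 2 (highest adjusted p = 0.0536), and overlaps exons of another gene in 19.9% of its exon bases. MANCR is a long noncoding RNA measured at 366 ± 8.79 normalized counts in DMSO and 466 ± 18.1 at 0.5 nM (mean and SD, n = 3; 0.34 ± 0.07, adjusted p = 0.0174). The call was lost without any 1 of the DMSO libraries (highest adjusted p = 0.0931). A match lies in the MANCR window at bases 225 to 219 and again at 126 to 120 before the start, and that of UCN2 at 102 to 96. A match is a description of the sequence and not of a bound factor.

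Of 46 UPR target genes of the ER, 2 fell and 0 rose (4.35%, beside 1.17% of all genes). Wholly below DMSO lay 14 of the 46 and wholly above 0, where 10.7% and 7.43% of all genes did. The medians by library were -0.05, -0.06 and -0.04. DNAJC3, an ER co-chaperone, had 1311, 1388 and 1356 normalized counts in DMSO and 1118, 937 and 1199 at 0.5 nM (-0.32 ± 0.07, adjusted p = 0.0227). XBP1, a transcription factor of the UPR, went from 1907, 1876 and 1736 to 1511, 1620 and 1516 (-0.25 ± 0.06, adjusted p = 0.0362). Both passed without replicate 2 (-0.22 and -0.28), and both were lost without any 1 of the DMSO libraries (highest adjusted p = 0.118 for DNAJC3), XBP1 also without 0.5 nM replicate 1 or 3 (0.183). DNAJB9, another ER co-chaperone, had 354, 344 and 316 in DMSO and 310, 325 and 339 at 0.5 nM, and the groups overlapped (adjusted p = 0.826). Of 48 N-glycosylation enzymes, B4GALT5 fell (82.3% of DMSO), of 26 O-glycosylation enzymes, GALNT1 (87.1%, adjusted p = 0.0499), of 60 coat proteins, cargo receptors and SNAREs, SAR1A, the GTPase that starts COPII vesicles (87.7%), and of 42 lysosomal proteins, LAMP1, a main glycoprotein of the lysosomal membrane (89.1%). With any 1 of the DMSO libraries left out none of these 4 passed (highest adjusted p between 0.132 for LAMP1 and 0.207 for GALNT1), GALNT1 did not pass without replicate 2 (adjusted p = 0.0755), LAMP1, B4GALT5 and SAR1A did not pass without 0.5 nM replicate 1, nor SAR1A and GALNT1 without replicate 3, and LAMP1 and SAR1A did not pass with the length and GC trend removed (0.0587 and 0.154). B4GALT5 was lowest in replicate 2, and without it the fold change went from -0.28 to -0.17 (adjusted p = 0.0397). A single call is 2.08% of the N-glycosylation list, 3.85% of the O-glycosylation list, 1.67% of the coat proteins and 2.38% of the lysosomal proteins, and lists of this size can hold 1 call or none at the share of 1.17% seen over all genes. The lists of 26 heat-shock genes, 35 ATF4 target genes and 18 subunits of the V-type ATPase had no gene past the threshold.

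Of 38 interferon-stimulated genes, 0 rose and HERC6 and SAMD9L fell (5.26%, beside 1.17% of all genes called), with a median log2 fold change of -0.11 beside -0.01 for all genes tested. That median was alike in the 3 libraries, at -0.14, -0.11 and -0.12, and 14 of the 38 genes had treated libraries wholly below DMSO and 0 wholly above, where 10.7% and 7.43% of all genes did. SAMD9L had 488, 512 and 526 normalized counts in DMSO and 408, 275 and 385 at 0.5 nM (-0.53 ± 0.11), and without replicate 2, the lowest, the fold change was -0.36 (adjusted p = 0.0209). HERC6 fell to 82.5% of DMSO (adjusted p = 0.0258). Among the lysosomal proteins 14 of 42 were wholly below DMSO and 1 above, with a median of -0.10, again beside 10.7% and 7.43% of all genes. Of 27 MAL-family and tetraspan membrane proteins, MAL2 and TSPAN9 (84.3% of DMSO) fell (7.41%, beside 1.17%). The list carries the name of MAL2 and was written with earlier results of these data known, so its share adds no support. The median of this list was 0.00 with all libraries, near that of all genes, and -0.04 without replicate 2. By library it was -0.05, 0.06 and 0.00. SAMD9L and TSPAN9 lost the call without any 1 of the DMSO libraries (highest adjusted p = 0.0937 and 0.143), TSPAN9 also without 0.5 nM replicate 1, and HERC6 lost it without DMSO replicate 1 or 2 or 0.5 nM replicate 1 (0.15). S-phase genes (44) and G2/M-phase genes (46) had no calls, with medians of -0.01 for each.

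In several lists the 3 libraries differed. None of 80 cytosolic ribosomal proteins passed, where 1.17% of all genes did. Of the 80, 42 lay wholly above DMSO (7.43% of all genes did) and 0 below, with a median of 0.16 and a median transcript of 1938 bases. In replicate 2 that median was 0.31, against 0.08 in each of the others, and without replicate 2 it was 0.08. The 73 nuclear-encoded subunits of the respiratory chain had medians of 0.04, 0.32 and 0.03, with 22 genes above DMSO and 0 below, beside the same 7.43%. The 13 subunits encoded in mitochondria differed most between replicates, with medians of -0.09, 0.64 and -0.48, and none of them was separate from DMSO. For 435 ZNF genes, with a median transcript of 4336 bases, the medians were -0.04, -0.12 and -0.03. Of these genes 7 lay wholly above DMSO and 51 wholly below, where 7.43% and 10.7% of all genes did. ZNF189 alone passed (0.23% of the list, beside 1.17% of all genes). It fell to 75.4% of DMSO (adjusted p = 0.0485) and lost the call with any 1 of the 6 libraries left out (highest adjusted p = 0.203).

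**Figure D4:**
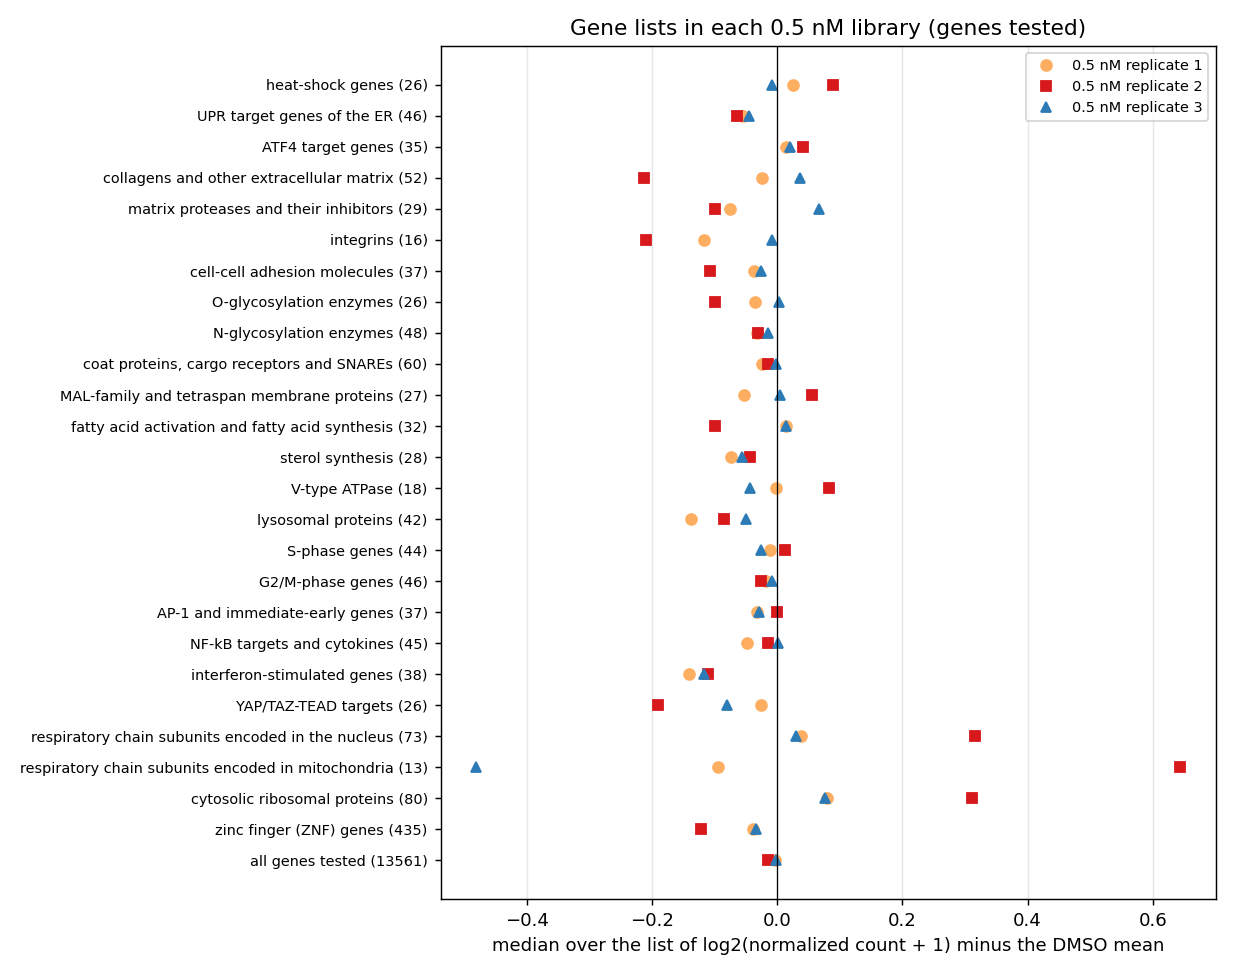
Median over each list of log2(normalized count + 1) minus the DMSO mean (horizontal axis) in the 3 libraries at 0.5 nM, with the number of genes tested in brackets. The libraries lie close together for interferon-stimulated genes (-0.14, -0.11 and -0.12) and far apart for ribosomal proteins, respiratory chain subunits and the extracellular matrix.

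The values at the higher doses, which were compared with the same DMSO libraries, are set beside those at 0.5 nM. MAL2 had a log2 fold change of -0.53 at 0.5 nM, -0.53 at 5 nM, -0.02 at 50 nM and -0.33 at 500 nM. ACSL3 had -0.41, -0.45, -0.01 and 0.11, and BMP4 had -0.30, -0.36, 0.14 and 0.17. For these 3 genes the level at 50 nM was thus within 0.15 of DMSO on the log2 scale. IL1B had 0.66, 0.71, 0.18 and 0.74, and CSF3 0.67, 0.46, 0.11 and 0.44. MMP1 (0.47, 0.45, -0.16 and -0.53) and TNC (0.51, 0.67, -0.53 and -0.59) were above DMSO at the lower doses and below it at 500 nM. EFEMP1 (-0.43, -0.52, -0.76 and -1.61), ICAM1 (-0.55, -0.37, -1.18 and -1.83) and DNAJC3 (-0.32, -0.72, -1.01 and -1.10) were lowest at 500 nM. The differences between 0.5 nM and the doses of 50 and 500 nM were not tested.

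**Figure D5:**
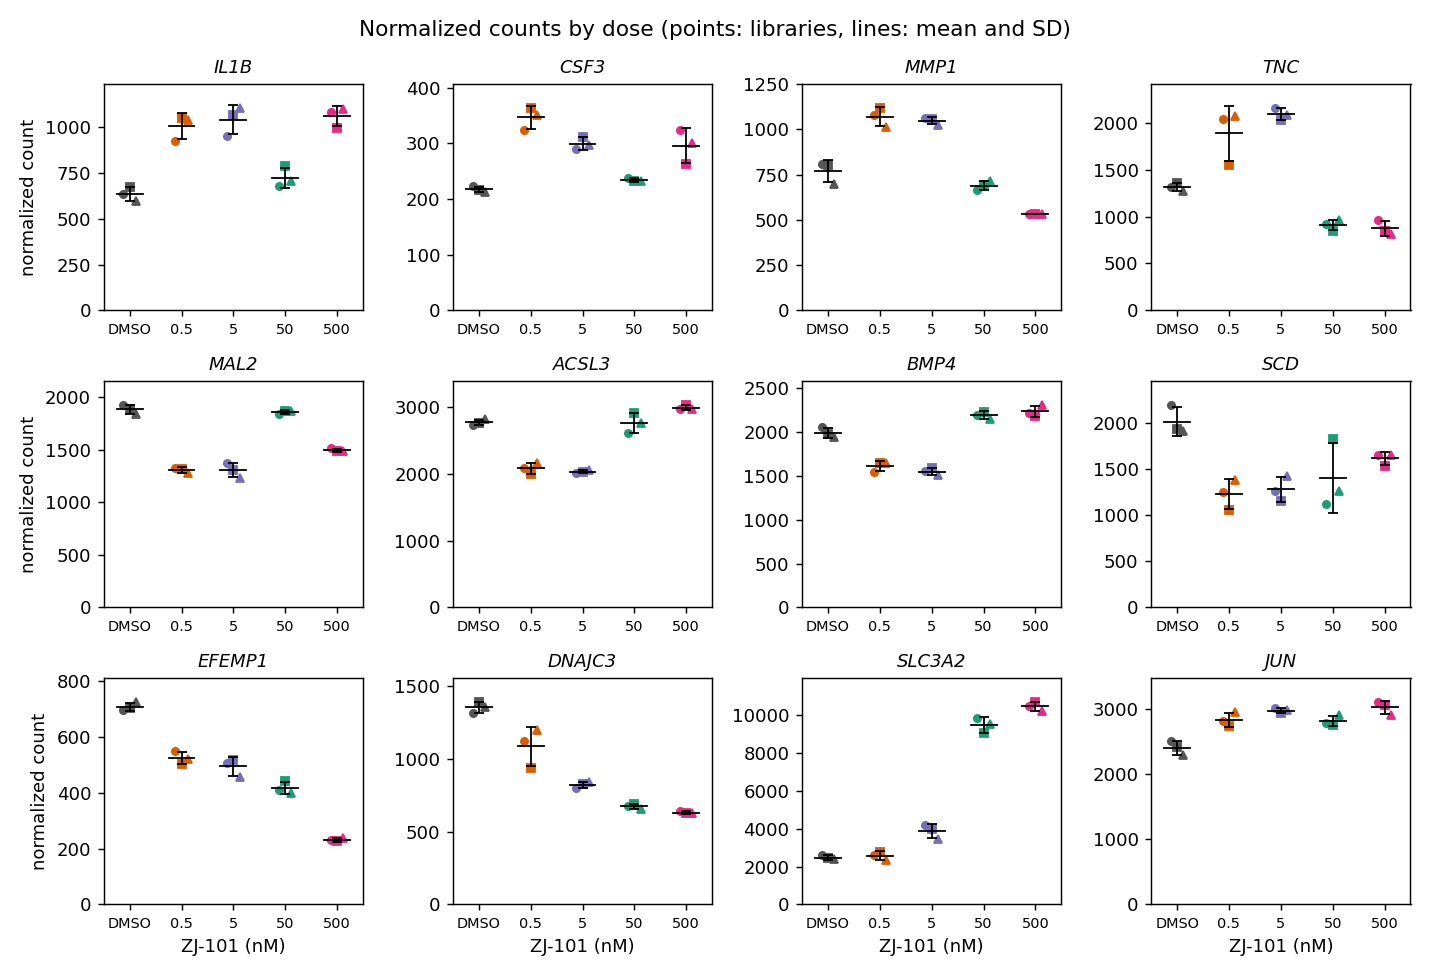
Normalized counts (vertical axes, from 0) of 12 genes in DMSO and at 0.5, 5, 50 and 500 nM ZJ-101, with a point for each library and lines for the mean and SD of 3 libraries. MAL2, ACSL3 and BMP4 are low at 0.5 and 5 nM and near or above the DMSO level at 50 nM, while SLC3A2 stays at the DMSO level at 0.5 nM and rises from 5 nM.

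Between 0.5 and 5 nM, a difference of means that leaves out the DMSO libraries while its spread is estimated over all 5 groups, 16 genes were differentially expressed (0.118% of genes tested), 4 higher and 12 lower at 5 nM. The smallest p belonged to SLC3A2, a subunit of amino acid transporters, and MANF. SLC3A2 had a mean of 2580 normalized counts at 0.5 nM and 3890 at 5 nM (0.59, adjusted p = 4.23e-04). At 0.5 nM SLC3A2 overlapped DMSO, with 2619, 2781 and 2341 against 2612, 2433 and 2389. Of the 12 lower genes, named here after their values were seen and not tested as a group, MANF, ERLEC1, DNAJB11 and DNAJC3 serve protein folding and quality control in the ER, TMEM165, B4GAT1, CHPF, MGAT1, MOGS and TMTC3 serve glycosylation, and ARSK and FSTL3 are a lysosomal sulfatase and a secreted inhibitor of activin. MANF had means of 1652 in DMSO, 1657 at 0.5 nM and 1174 at 5 nM. Only DNAJC3 also passed between 0.5 nM and DMSO, with means of 1352, 1085 and 821. The count was 9, 7 and 9 without 5 nM replicate 1, 2 or 3, fits added after the data had been seen, and 25 without 0.5 nM replicate 2. SLC3A2, MANF, ARSK, TMEM165, ERLEC1, DNAJB11 and B4GAT1 passed in each of the 3 fits without a 5 nM library. TMTC3 passed in 2 of them, CHPF and TTC17 in 1, and MGAT1, MOGS, DNAJC3, FSTL3, ZNF251 and LRIG2 in none (highest adjusted p = 0.188). The 4 higher genes were SLC3A2, TTC17, LRIG2 and ZNF251, the last with means of 8.69 and 35.9. For 14 of the 15 genes stable to leaving out a library, the 0.5 and 5 nM levels differed by a log2 fold change of at most 0.21 in size, and SYTL2 was 0.32 higher at 5 nM (adjusted p = 0.237).

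Several genes that the study discusses at higher doses did not pass at 0.5 nM. HSP90AA1, the stress-inducible cytosolic HSP90, had 43810, 44270 and 43780 normalized counts in DMSO and 43140, 49010 and 43180 at 0.5 nM (adjusted p = 0.845), where replicate 2 alone lay above the controls, and its reads can be shared with the near-identical HSP90AA2P. The log2 fold changes of EPHA2, an ephrin receptor, and B4GALT1, a Golgi galactosyltransferase, were -0.08 and -0.10 (adjusted p = 0.353 and 0.358), with EPHA2 lower in each treated library than in each control. GPRC5A, an orphan receptor (-0.04), and ATP6V0A1, a V-type ATPase subunit (0.01), had overlapping groups. These p-values do not show that the levels were equal.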

How the data were processed

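Poly-A RNA of MDA-MB-231 cells was measured in 15 libraries, 3 for each of DMSO and 0.5, 5, 50 and 500 nM ZJ-101 at 6 h. The deposited signal values are read counts per gene that the authors obtained with HISAT2 on hg38 and htseq-count and divided by DESeq2 size factors. Tool versions, the GENCODE release number and the strandedness of counting are not given in the sources used here. The table holds 59608 genes, and 1 line of doses was left out. Within 0.001, 100.0% of the values corresponded to whole reads. Libraries held 12415519 to 15284762 reads on genes. No library was a duplicate: chi-square divided by its degrees of freedom was 2.04 to 16.6 between libraries of a group, and sampling noise alone gives about 1.

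The test was limma with a variance trend on log2(normalized count + 1) on 13561 genes (those averaging 10 or more), all 5 groups in 1 fit, with Benjamini-Hochberg adjustment and a threshold of 0.05. Fold changes are on this log2 scale, which understates those of genes with few reads. Percentages of DMSO and folds are these fold changes taken back from the log2 scale, so they carry the same understatement. The comparison, its gene lists (from general knowledge) and its alternatives were chosen with earlier results of these data known. Named genes are the 8 largest rises and falls, the 5 smallest p in each direction, up to 15 genes that passed with each library left out, genes the paper names, and up to 2 rises and 2 falls per list; LINC00973, MANCR, PRSS3, CLDN2, LCN2, GXYLT2 and the genes between 0.5 and 5 nM were named after their values were seen. Of the genes this rule gives, 2 are not reported here.

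Positions, transcript lengths and exon overlaps are those of GENCODE 44, which matched 93.79% of the genes tested and 98.74% of those past the threshold. Promoter windows are from RefSeq on GRCh38.p14. Alternatives included a pseudocount of 0.5 or 5, dropping the filter or raising it to 50, a replicate block, removal of the trend on length and GC content, TMM scaling, equal totals, DESeq2 and edgeR's quasi-likelihood test on recovered reads, array weights, the 6 libraries alone, other thresholds, and each library left out. Versions were limma 3.58.1, DESeq2 1.42.0 and edgeR 4.0.16 in R 4.3.3, minimap2 2.31-r1302 and Python 3.11.15.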

Additional observations from a re-analysis of the deposited data

How the results depend on the processing

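The count of genes past the threshold at 0.5 nM, 159, stayed between 108 and 238 under the pseudocounts, filters, scalings, block, trend removal, edgeR and DESeq2. It was 1037 with array weights, which were 3.2, 0.21 and 0.615 for 0.5 nM replicates 1, 2 and 3. The count was 21 with the 6 libraries alone and 357 with these 6 but without 0.5 nM replicate 2. It was 285 at an adjusted p under 0.1 and 6 when a log2 fold change of 1 or more in size was required. Leaving out 1 of the 6 libraries gave 19 to 391 genes. Between 0.5 and 5 nM, 16 genes became 7 to 25 with 1 of the 6 libraries of that comparison left out (the 5 nM ones as a choice made after seeing the data), 25 with the block and the trend removed, 29 with DESeq2, 52 with array weights and 1 under the same requirement of size. The genes with separate libraries numbered 2454 and, with fewer libraries to compare, 3472 to 4447. The replicate numbers did not pair the libraries (correlations of same-numbered deviations from -0.0855 to 0.0961 over 30 pairs), and the replicate block gave 163 genes at 0.5 nM and 17 between 0.5 and 5 nM.

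Over the 57 named genes and their alternatives, 979 of 1181 values kept direction and side of the threshold, 188 lost the call and 14 changed sign. The sign changes were all in genes that passed in no setting and whose fold changes were near 0. With 1 library left out, the fold change ranged from -0.000219 to 0.124 for SLC3A2, -0.0786 to 0.0046 for GPRC5A, -0.0263 to 0.0658 for HSP90AA1, -0.0353 to 0.0864 for ITGA5 and -0.0242 to 0.0444 for ATP6V0A1. With the 6 libraries but no 0.5 nM replicate 2 it was -0.000219 for SLC3A2, 0.0046 for GPRC5A, -0.0263 for HSP90AA1 and -0.00949 for ATP6V0A1. With array weights it was 0.0153 for GPRC5A and -0.0182 for HSP90AA1, and with the trend removed, with or without the block, 0.000831 for GPRC5A. The cause of these changes was not tested. Of the 15 genes stable to leaving out a library, BMP4, SYTL2 and SORCS2 did not pass with the 6 libraries alone (highest adjusted p = 0.11). Genes averaging under 10 normalized counts were not tested at this depth.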
